A study of Mus musculus with 9 samples.

Results

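Cells carry receptors that recognise DNA or RNA in the cytosol, where little of either is normally found. cGAS, encoded by Mb21d1 (now Cgas), binds double-stranded DNA and makes a cyclic dinucleotide that activates STING, encoded by Tmem173 (now Sting1). The RIG-I-like receptors encoded by Ddx58 (now Rigi), Ifih1 and Dhx58 bind RNA, and those of Ddx58 and Ifih1 act through the mitochondrial adaptor MAVS. Both routes reach the kinases TBK1 and IKKε, and the enzymes TREX1 and SAMHD1 limit the nucleic acid that the sensors can meet.

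The transcripts of these 10 genes, namely Mb21d1, Tmem173, Ddx58, Ifih1, Dhx58, Mavs, Tbk1, Ikbke, Trex1 and Samhd1, were followed in bone marrow mature megakaryocytes (mMKs), out of 37316 genes named on the array. They were chosen by name, as known sensors, adaptors, kinases and enzymes of cytosolic nucleic acid sensing. Total RNA came from mMKs of male mice, either without irradiation (Ctrl) or at 1 or 3 days post ionizing radiation (dpi, IR) of 5 Gy, and each of the 3 groups had 3 arrays. Per the methods the γ-rays were given to the whole body in a single dose, and mMKs were enriched by positive selection for CD41 and then CD42d. The series' design text names separate experiments with different donors. The methods name wild-type C57BL/6 mice for control and IR groups but do not tie them to the arrays, and the age of these mice is not given in the sources used here.

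The arrays were Agilent 1-colour arrays, on which each probe gives an intensity. Levels are given as log2 intensity minus the 75th percentile of the array, so that a level of 0 equals that percentile, and the level of a probe says nothing about its rank against another probe. All 21 probes of the 10 genes were well above background on 3 of 3 arrays in every group. A gene was represented by its brightest probe, and 29410 genes were tested in 1 limma fit over the 9 arrays. Genes counted as called when the p adjusted by Benjamini-Hochberg was under 0.05 and the change was 2-fold or more. Spots well above background made up 69.1% on Ctrl replicate 1, an array with a slide to itself, against 79.5% and 80.8% on the other Ctrl arrays, 72.3% to 75.6% at 1 dpi and 81.6% to 81.8% at 3 dpi. The 75th percentile itself was lowest at 1 dpi. In log2 it was 10.03 to 10.66 in Ctrl, 9.33 to 9.45 at 1 dpi and 10.37 to 10.55 at 3 dpi. The number of arrays limits the precision, and the smallest p that an exact two-sided permutation test of 3 against 3 allows is 0.1.

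At 1 dpi, Trex1, Dhx58 and Ikbke were called higher than in Ctrl, which is 3 of the 10 genes, and 0 were called lower. Of all genes tested, the share called was 12.3% for higher and 2.87% for lower. By adjusted p alone, without the 2-fold minimum, 6 of the 10 were higher (Trex1, Dhx58, Ikbke, Ddx58, Ifih1 and Samhd1) and 2 were lower (Tbk1 and Mavs), against 34.8% and 21.1% of all genes. At 1 dpi the arrays of all 10 genes did not overlap with those of Ctrl, which held for 67.5% of all genes. Over all genes the median change was not at 0, since against Ctrl its log2 value was 0.25 on day 1 and 0.11 on day 3, and it was -0.11 from 1 to 3 dpi. Without Ctrl replicate 1 this median fell to 0.15 at 1 dpi and 0.0085 at 3 dpi. Relative to the median over all arrays, Trex1 was at 1.23, Dhx58 at 1.11, Ikbke at 0.88, Ddx58 at 0.54, Ifih1 at 0.44, Samhd1 and Tmem173 at -0.06 each, Mb21d1 at -0.40, Mavs at -0.67 and Tbk1 at -1.05, and Ikbke was then not called while Tbk1 was called lower (adjusted p = 0.00035 from limma, with a range of 0.00035 to 0.0091 over its alternatives). Both outcomes turned round without Ctrl replicate 1, where, relative to the median of 0.15, Ikbke was at 1.03 and called (adjusted p = 0.00071, with a range of 0.00011 to 0.0046), Tbk1 at -0.91 and not called, Samhd1 at 0.02 and Tmem173 at 0.08. The scalings also moved the balance of all called genes, of which 81.1% were higher at 1 dpi, against 56.2% after quantile normalization, 48.8% after scaling to the array median and 54.9% relative to the median of all genes. From 1 to 3 dpi the share was 45.2%, against 62.9%, 67.2% and 58.1% in that order.

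At 3 dpi, 0 of the 10 genes were called against Ctrl in limma, where 6.98% of all genes were called higher and 1.82% lower. At an unadjusted p under 0.05 there were 6 of 10, against 41.5% of all genes, and the methods' t-test at the same threshold gave 6 as well, against 35.8%. By adjusted p alone 4 were higher (Trex1, Dhx58, Ikbke and Ifih1) and 1 was lower (Mb21d1), against 16.9% and 15.1% of all genes. Of these 5 genes, Trex1 alone also passed with array median scaling (0.57, adjusted p = 0.0059). The comparisons of 3 dpi and 1 dpi with Ctrl share the control arrays, and the difference between both time points was therefore tested directly. Between 3 and 1 dpi, 0 of 10 genes were called in limma, with 3.97% of all genes called higher and 4.82% lower, while 7 of 10 had an unadjusted p under 0.05, against 52.5% of all genes, and the methods' t-test gave 8, against 57.5%. By adjusted p alone 5 were lower at 3 than at 1 dpi (Dhx58, Trex1, Ikbke, Ddx58 and Ifih1) and 2 were higher (Tbk1 and Mavs), against 24.9% lower and 19.8% higher among all genes, or 44.6% in either direction. With array median scaling Ddx58 (-0.48, adjusted p = 0.057), Ikbke (-0.49, 0.054) and Ifih1 (-0.08, 0.66) no longer passed.

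**Figure D1:**
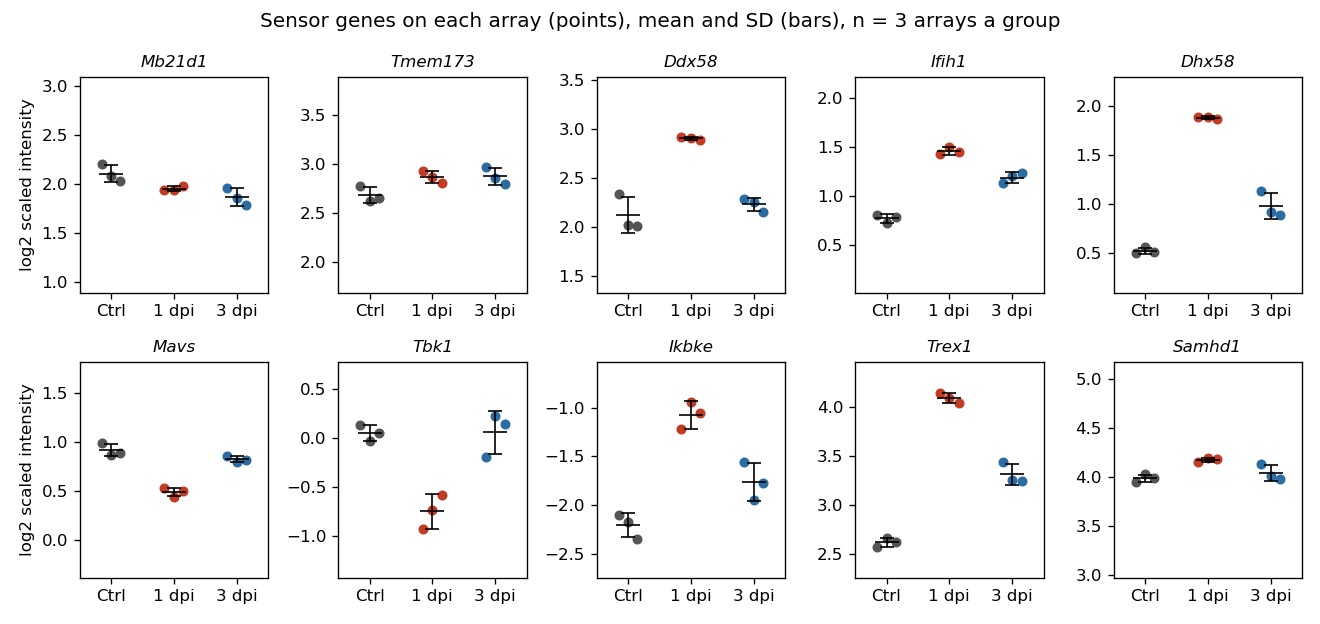
Level of the brightest probe of each sensor gene on every array, as log2 intensity minus the 75th percentile of the array (vertical axis), for Ctrl, 1 dpi and 3 dpi (horizontal axis). Points are arrays, bars are the mean and SD of 3 arrays, every panel spans the same range, and Trex1, Dhx58 and Ikbke at 1 dpi lie above all their Ctrl arrays.

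For the DNA sensor gene Mb21d1 the size and direction of the value at 1 dpi depended on the scaling and on the probe. On its brightest probe (chromosome 9, 78278381 to 78278440 on mm9) the level was 2.20, 2.08 and 2.03 in Ctrl, 1.93, 1.94 and 1.98 at 1 dpi and 1.96, 1.85 and 1.79 at 3 dpi. All irradiated arrays lay below the Ctrl arrays, by a margin smaller than the spread among the Ctrl arrays, and the 1 and 3 dpi arrays overlapped. At 1 dpi the log2 fold change was -0.15 (adjusted p = 0.1 from limma), but -0.40 relative to all genes (adjusted p = 0.0022), or -0.26 when Ctrl replicate 1 was also left out (0.014), -0.47 with array median scaling (0.025), 0.25 with the mean of the probes (0.029) and 0.59 in the deposited table (0.0025), and over the alternatives this adjusted p ranged from 0.0022 to 0.21. At 3 dpi it was -0.24 (SE 0.07, adjusted p = 0.038), with a range of 0.0058 to 0.68 over 25 alternatives, of which 9 kept it under 0.05 in the same direction. It was -0.25 to -0.19 (adjusted p 0.059 to 0.12) and did not pass without any 1 of the 1 dpi arrays, Ctrl replicate 1 or 2 or 3 dpi replicate 2 or 3. A second probe of Mb21d1 (78283309 to 78283368) behaved differently. It read -1.61, -1.44 and -1.52 in Ctrl, -0.79, -0.93 and -0.91 at 1 dpi and -1.23, -1.64 and -1.48 at 3 dpi. On this probe the 1 dpi arrays were above all others, and the Ctrl and 3 dpi arrays overlapped. At 3 against 1 dpi it was at -0.57 (SE 0.11, adjusted p = 0.004 from limma over all probes). Both probes carry the same transcript accession in the array files, and the cause of their difference was not tested.

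Tmem173, whose product STING sits in the membrane of the endoplasmic reticulum, has 1 probe (chromosome 18, 35893692 to 35893751). It read 2.77, 2.62 and 2.65 in Ctrl, 2.93, 2.86 and 2.81 at 1 dpi and 2.97, 2.86 and 2.80 at 3 dpi. The irradiated arrays were all above the Ctrl arrays, and the arrays of both time points overlapped. From 1 to 3 dpi its log2 fold change was 0.01 (SE 0.07, adjusted p = 0.94 from limma), and at 3 dpi against Ctrl it was 0.19 (SE 0.07, adjusted p = 0.083). This 3 dpi value passed in 6 of 25 alternatives. It was 0.07 with array median scaling (adjusted p = 0.76) and 0.08 relative to all genes (0.46), or 0.23 (0.041) when Ctrl replicate 1 was also left out. At 1 dpi the value against Ctrl was 0.19 (SE 0.07, adjusted p = 0.062, with a range of 0.012 to 0.49 over 25 alternatives). It passed in the same direction in 9 of these, while it was -0.13 with array median scaling and -0.06 relative to all genes (0.08 when Ctrl replicate 1 was also left out), so that its direction depends on the scaling.

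Of the RNA sensor genes, Dhx58 encodes LGP2, a RIG-I-like receptor without signalling domains that modulates the others. On its brightest probe (chromosome 11, 100556271 to 100556330) it read 0.51, 0.56 and 0.51 in Ctrl, 1.89, 1.90 and 1.87 at 1 dpi and 1.13, 0.93 and 0.89 at 3 dpi. None of the 3 groups overlapped, and 3 dpi lay between Ctrl and 1 dpi. The log2 fold change was 1.36 at 1 dpi (SE 0.07, adjusted p = 7.8e-06 from limma), which is 2.56-fold, and 0.46 at 3 dpi (SE 0.07, adjusted p = 0.0024). Dhx58 at 3 against 1 dpi was at -0.90 (SE 0.07, adjusted p = 1e-04). With array median scaling the 3 dpi value was 0.33 (adjusted p = 0.081, the highest over its alternatives). The other probe, 100564085 to 100564144, gave 1.45 at 1 dpi and 0.66 at 3 dpi.

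Ddx58 encodes RIG-I, which recognises RNA with a triphosphate at its 5′ end. Its brightest probe (chromosome 4, 40151893 to 40151952) read 2.33, 2.01 and 2.01 in Ctrl, 2.92, 2.90 and 2.88 at 1 dpi and 2.28, 2.25 and 2.15 at 3 dpi. The 1 dpi arrays stood clear of the rest, whereas Ctrl replicate 1 lay above every 3 dpi array. The log2 fold change at 1 dpi was 0.78 (SE 0.10, adjusted p = 0.00038 from limma), with 0.47 after array median scaling, 1.28 with the mean of the probes and 1.51 in the deposited table, and at 3 dpi it was 0.11 (adjusted p = 0.41), or -0.003 relative to all genes. Without Ctrl replicate 1 the value at 3 dpi was 0.22 (adjusted p = 0.023, with a range of 0.023 to 0.98 over the alternatives), or 0.21 relative to all genes. The other 3 probes of Ddx58 were at 1.32, 1.44 and 1.57 at 1 dpi, each past the 2-fold minimum. One of these, 40156918 to 40156977, read 1.51 on 3 dpi replicate 1 but 0.54 and 0.57 on the other 3 dpi arrays.

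Ifih1 encodes MDA5, the receptor for long double-stranded RNA. Its brightest probe (chromosome 2, 62435621 to 62435680) read 0.81, 0.72 and 0.78 in Ctrl, 1.43, 1.50 and 1.45 at 1 dpi and 1.13, 1.20 and 1.23 at 3 dpi. The groups did not overlap. Its log2 fold change was 0.69 at 1 dpi (SE 0.06, adjusted p = 6.5e-05 from limma) and 0.42 at 3 dpi (SE 0.06, adjusted p = 0.0011). The second probe, 62446313 to 62446372, read -2.56, -2.50 and -2.53 in Ctrl, -1.23, -1.18 and -1.16 at 1 dpi and -2.25, -2.57 and -2.64 at 3 dpi. It was higher at 1 dpi by 1.33 (SE 0.10, adjusted p = 3.8e-05 over all probes), and at 3 dpi its arrays overlapped with Ctrl. The probes of Ifih1 thus differed at 3 dpi, with a log2 fold change of 0.42 on the brightest probe and 0.04 on the other. The value at 3 dpi was 0.29 with array median scaling (adjusted p = 0.14), 0.23 with the mean of the probes and -0.0050 in the deposited table (adjusted p = 0.98), and at 1 dpi it was 0.37 with array median scaling and 1.21 in the deposited table.

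Promoters of the sensor genes were searched for the letters of known interferon elements, whichever way the gene moved. The 9 RefSeq promoters (GRCm38.p6) belonged to 8 of the 10 genes, among them Mavs and Tbk1, which were lower at 1 dpi, while those of Tmem173 and of Dhx58, which was called higher, were not analysed here. In the 250 bases before the start, the interferon-stimulated response element, searched as GAAA, any 2 bases and GAAA, was found, on either strand, in 0 of the 9 promoters and in 2.98% of all 32851 promoters. The letters TTCNNNGAA of the STAT-binding element, which read the same on both strands, were found in 1 of the 9, that of Samhd1, and in 7.02% of all promoters. Both patterns hold the letters GAA, so that their matches can overlap. A match or its absence concerns these letters in this window only. The window of Samhd1, which holds the match, and those of the RNA sensor genes Ddx58 and Ifih1 lie over no other annotated gene and are printed 5′ to 3′ on the strand of the gene, with the matched letters in capitals. They lie at chr4:40239826-40240075, chr2:62646256-62646505 and chr2:157135097-157135346, all on the minus strand.
Ddx58: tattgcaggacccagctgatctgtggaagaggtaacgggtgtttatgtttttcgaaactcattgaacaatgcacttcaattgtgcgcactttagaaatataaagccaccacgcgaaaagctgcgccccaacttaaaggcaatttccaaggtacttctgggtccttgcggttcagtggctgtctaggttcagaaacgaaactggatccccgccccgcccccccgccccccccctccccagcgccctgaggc
Ifih1: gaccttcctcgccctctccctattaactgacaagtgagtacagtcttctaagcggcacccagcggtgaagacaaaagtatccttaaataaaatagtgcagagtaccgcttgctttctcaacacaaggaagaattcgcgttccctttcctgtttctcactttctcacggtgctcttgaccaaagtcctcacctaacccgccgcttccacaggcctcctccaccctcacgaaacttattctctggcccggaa
Samhd1: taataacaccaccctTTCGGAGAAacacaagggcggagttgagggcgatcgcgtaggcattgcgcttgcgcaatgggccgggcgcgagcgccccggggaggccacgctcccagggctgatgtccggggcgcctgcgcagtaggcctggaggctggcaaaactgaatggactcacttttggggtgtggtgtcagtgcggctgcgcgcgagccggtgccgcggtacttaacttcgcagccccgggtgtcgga

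Mavs encodes the adaptor on mitochondria that RIG-I and MDA5 engage. Its single probe (chromosome 2, 131073675 to 131073734) read 0.99, 0.87 and 0.89 in Ctrl, 0.53, 0.44 and 0.50 at 1 dpi and 0.86, 0.80 and 0.82 at 3 dpi. The 1 dpi arrays were lowest, and the 3 dpi arrays lay just under the Ctrl arrays. The log2 fold change was -0.43 at 1 dpi (SE 0.06, adjusted p = 0.00071 from limma) and -0.09 at 3 dpi (adjusted p = 0.27). Between 3 and 1 dpi Mavs was higher by 0.33 (SE 0.06, adjusted p = 0.0031). With array median scaling these values were larger, at -0.74 at 1 dpi and 0.52 at 3 against 1 dpi. At 3 dpi against Ctrl Mavs was then at -0.22 (adjusted p = 0.28). Relative to all genes that value was -0.21 and passed (0.028), but it was -0.07 (0.38) when Ctrl replicate 1 was also left out.

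The kinase genes moved in opposite directions. Tbk1, which encodes the kinase that phosphorylates STING, MAVS and IRF3, read 0.13, -0.03 and 0.05 in Ctrl, -0.93, -0.74 and -0.58 at 1 dpi and -0.19, 0.23 and 0.14 at 3 dpi on its probe (chromosome 10, 120988364 to 120988587). The 1 dpi arrays were below all others, while Ctrl and 3 dpi overlapped. At 1 dpi its log2 fold change was -0.80 (SE 0.13, adjusted p = 0.0016 from limma), and with array median scaling it was -1.12 (adjusted p = 0.0012) and called lower. Between 3 and 1 dpi Tbk1 was higher by 0.81 (SE 0.13, adjusted p = 0.0021), and at 3 dpi against Ctrl its log2 fold change was 0.01 (adjusted p = 0.97).

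Ikbke encodes the related kinase IKKε. Its brightest probe (chromosome 1, 133151809 to 133151868) read -2.10, -2.17 and -2.34 in Ctrl, -1.22, -0.94 and -1.06 at 1 dpi and -1.56, -1.94 and -1.77 at 3 dpi. The 3 groups did not overlap, and 3 dpi again lay between the others. Ikbke changed by 1.13 in log2 at 1 dpi (SE 0.12, adjusted p = 0.00022 from limma) and 0.44 at 3 dpi (SE 0.12, adjusted p = 0.027). The call at 1 dpi was close to the 2-fold minimum, and it was lost after scaling to the array median (0.81), with normexp background correction and quantile normalization (0.89) and with the mean of the probes (0.89). The adjusted p at 3 dpi ranged from 0.018 to 0.22 over 25 alternatives and did not pass in 12 of these. Among the 12 were array median scaling (0.22), quantile normalization (0.054), the deposited table (0.059), the mean of the probes (0.062), the replicate block (0.062) and, with values of 0.34 to 0.46 and adjusted p of 0.06 to 0.081, leaving out 3 dpi replicate 1 or 3 or Ctrl replicate 2 or 3. The second probe, 133163076 to 133163135, was at 0.65 at 1 dpi (SE 0.33, adjusted p = 0.13 over all probes), with Ctrl levels of -5.84, -4.71 and -4.42 that overlapped with the 1 dpi arrays.

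Trex1 encodes the main exonuclease that degrades cytosolic DNA. On its probe (chromosome 9, 108960454 to 108960513) it read 2.57, 2.66 and 2.63 in Ctrl, 4.15, 4.10 and 4.04 at 1 dpi and 3.44, 3.26 and 3.25 at 3 dpi. The groups were far apart compared with the spread within each. Trex1 had a log2 fold change of 1.48 at 1 dpi (SE 0.07, adjusted p = 4.5e-06 from limma). This is 2.78-fold, and at 3 dpi the log2 fold change was 0.70 (SE 0.07, adjusted p = 0.00022). Trex1 at 3 against 1 dpi was at -0.78 (SE 0.07, adjusted p = 0.00016).

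Samhd1 encodes a dNTPase that also limits nucleic acid accumulation, and it has 5 probes. The brightest (chromosome 2, 156923265 to 156923324) read 3.96, 4.03 and 3.99 in Ctrl, 4.16, 4.19 and 4.18 at 1 dpi and 4.13, 4.01 and 3.98 at 3 dpi. The 1 dpi arrays were above the others by a small margin, and 3 dpi overlapped with Ctrl. Its log2 fold change at 1 dpi was 0.19 (SE 0.06, adjusted p = 0.032 from limma), but 0.01 after quantile normalization, -0.06 relative to all genes (0.02 when Ctrl replicate 1 was also left out), -0.13 after scaling to the array median and -0.01 with normexp and quantile normalization, so that its direction depends on the scaling. Its adjusted p was 0.052 to 0.092, with values of 0.18 to 0.20, without any 1 of the 1 dpi arrays, Ctrl replicate 2 or 3 or 3 dpi replicate 2. The other probes gave larger changes at 1 dpi, of 0.37 (156935267 to 156936341), 0.38 (156930644 to 156931997), 0.79 (156925329 to 156925388) and 1.14 (156945894 to 156945953). The last of these read -2.12, -2.47 and -2.44 in Ctrl, -1.35, -1.18 and -1.07 at 1 dpi and -2.36, -1.97 and -2.11 at 3 dpi. At 3 dpi the 5 probes lay between 0.02 and 0.19, and the adjusted p over all probes was at least 0.33.

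**Figure D2:**
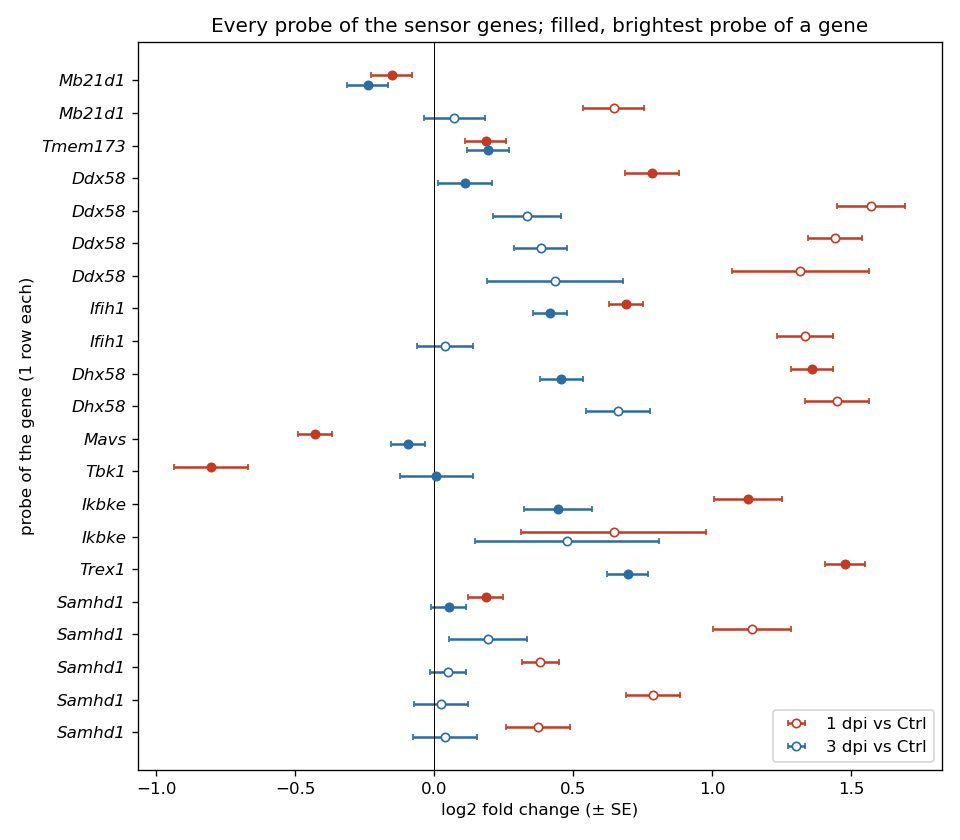
Log2 fold change against Ctrl (horizontal axis, with SE) of each of the 21 probes (vertical axis, 1 row per probe) at 1 dpi and 3 dpi, with the brightest probe of a gene filled. At 1 dpi the other probes of Ddx58, Dhx58, Ifih1, Mb21d1 and Samhd1 lie to the right of the brightest probe of the same gene, and that of Ikbke lies to the left.

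Counted over probes in place of genes, 9 of the 21 probes were called higher and 0 lower at 1 dpi, where 11.6% of all 44300 kept probes were called higher and 3.02% lower. At 3 dpi 0 of 21 were called, against 6.58% higher and 1.86% lower among all probes, with 6 higher and 1 lower by adjusted p alone in limma, against 16.0% and 16.9% of all probes, and 8 higher and 1 lower at an unadjusted p under 0.05, against 21.3% and 21.2%. Between 3 and 1 dpi 3 of 21 were called lower and 0 higher, against 5.03% and 3.75%. Probes of 1 gene share its transcripts and are not independent. The median change of all genes at 1 dpi, 0.25, also depended on how dim the probes were. It was 0.17 with probes well above background on all 9 arrays and 0.39 without the filter on dim probes. The part of this in the larger 1 dpi changes of dimmer probes of the sensor genes was not tested.

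The levels of the 3 genes called at 1 dpi were compared with all genes tested over the 9 arrays, which share 3 groups, as a description. The genes most like Trex1 were Oas1a (Pearson r = 0.999), Mx2 (0.999) and Ifi27l2a (0.998). The genes most like Dhx58 were Sesn2 (0.998), Bbc3 (0.997) and Cd2bp2 (0.997). Those most like Ikbke were 2610528A11Rik (0.993), Itpr1 (0.991) and Ercc5 (0.987).

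The other genes of the pathway were taken from lists of known members. At 1 dpi the calls among 25 other DNA sensors and cofactors were 2 higher and 1 lower, against 12.3% and 2.87% of all genes, and the list median of -0.04 was -0.29 relative to all genes, or -0.17 without Ctrl replicate 1. Zbp1, a sensor of Z-form nucleic acid, read 0.38, 0.16 and 0.04 in Ctrl, 2.78, 2.73 and 2.69 at 1 dpi and 1.62, 1.50 and 1.46 at 3 dpi. Its groups did not overlap, and at 3 dpi its log2 fold change was 1.33 (SE 0.09, adjusted p = 3.1e-05 from limma). Ifi204, a DNA-binding protein gene of the interferon-inducible PYHIN family, read 2.43, 2.30 and 2.35 in Ctrl, 4.13, 4.19 and 4.21 at 1 dpi and 4.21, 4.21 and 4.22 at 3 dpi. It stayed high, with 1.82 at 1 dpi and 1.85 at 3 dpi (SE 0.06 each, adjusted p = 7.7e-07 and 5.2e-07), and 0.03 between both (adjusted p = 0.67). Polr3g, which encodes a subunit of RNA polymerase III, fell by 1.11 at 1 dpi (SE 0.07, adjusted p = 1.7e-05), while its 3 dpi value was -0.33 (adjusted p = 0.0091). With the mean of its probes Polr3g was at -0.57 at 1 dpi, short of the 2-fold minimum, and with array median scaling the 3 dpi value was -0.45 (adjusted p = 0.053).

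Of 16 other RNA sensors and regulators of RIG-I-like receptors, 2 were called higher and 2 lower at 1 dpi, against 12.3% and 2.87% of all genes. The list median was -0.03, or -0.0059 without Ctrl replicate 1. Relative to all genes it was -0.28, or -0.16 when Ctrl replicate 1 was also left out. At 3 dpi 0 were called higher and 1 lower in limma, against 6.98% and 1.82%, with 4 higher at an unadjusted p under 0.05, against 22.7%, and 1 by the methods' t-test, against 18.5%. Trim25, which encodes a ubiquitin ligase of RIG-I, was at 1.49 at 1 dpi (SE 0.07, adjusted p = 5.2e-06 from limma) and at 0.18 at 3 dpi (adjusted p = 0.1), and with the mean of its probes the 1 dpi value was 0.77 and no longer called. The ubiquitin ligase gene Mex3c was at -1.30 at 1 dpi (SE 0.11, adjusted p = 7.4e-05) and at -0.26 at 3 dpi (adjusted p = 0.12). Rnf122 was lower at both times, at -1.21 (SE 0.18, adjusted p = 0.001) and -1.04 (adjusted p = 0.0033). Its call was lost at 1 dpi with the mean of the probes (-0.88) and at both times with normexp and quantile normalization (-0.83 and -0.66), and at 3 dpi also without 3 dpi replicate 2 (-0.94) or 3 (-0.99) or Ctrl replicate 2 (-0.999), whereas the deposited table gave -1.72. The list of 17 STING regulators and trafficking genes had 2 called higher and 0 lower at 1 dpi in limma, against 12.3% and 2.87% of all genes, with 4 lower at an unadjusted p under 0.05, against 22.8%, and 3 by the methods' t-test, against 22.1%. Its median there was -0.03, or 0.0061 without Ctrl replicate 1, and relative to all genes -0.28, or -0.15 when Ctrl replicate 1 was also left out. At 3 dpi 0 were called in limma, where 5 were higher and 4 lower at an unadjusted p under 0.05, against 22.7% and 18.9% of all genes, and 3 higher and 3 lower by the methods' t-test, against 18.5% and 17.2%. The 2 genes called at 1 dpi were Usp18, a deISGylase, at 2.09 (SE 0.06, adjusted p = 5.8e-07), and Nlrc5, at 1.17 (SE 0.06, adjusted p = 5.5e-06), and they were at 0.60 and 0.02 at 3 dpi. Nlrc5 was not called at 1 dpi with array median scaling (0.85) or relative to all genes (0.92).

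Among 19 adaptors, kinases and transcription factors, 1 was called higher and 1 lower at 1 dpi, against 12.3% and 2.87% of all genes, and the median of -0.17 was -0.41 relative to all genes, with -0.07 and -0.22 without Ctrl replicate 1. Irf7, which encodes a transcription factor of type I interferon genes, read 3.71, 3.62 and 3.61 in Ctrl, 5.83, 5.77 and 5.77 at 1 dpi and 5.05, 4.85 and 4.80 at 3 dpi. It was the single gene of this list called at 3 dpi, at 1.25 (SE 0.08, adjusted p = 1.6e-05 from limma). Tank, whose product binds TBK1 and IKKε, read 2.67, 2.60 and 2.64 in Ctrl and 1.52, 1.58 and 1.64 at 1 dpi, and its log2 fold change was -1.06 (SE 0.08, adjusted p = 3.3e-05), or -0.42 and not called with the mean of its probes. Irf3, which encodes the factor that TBK1 activates, was at -0.27 at 3 dpi (SE 0.09, adjusted p = 0.052). Over 25 alternatives this value was -0.40 to -0.18 and passed in 7. The 1 dpi value of Irf3 was -0.48 to -0.06 over its 25 alternatives and passed in 6. Of 12 genes of nucleic acid removal, 0 were called at 1 dpi in limma, where 3 were higher and 2 lower at an unadjusted p under 0.05, against 39.3% and 22.8% of all genes, and 2 and 2 by the methods' t-test, against 31.2% and 22.1%. The list median at 1 dpi was 0.01, or 0.07 without Ctrl replicate 1, and relative to all genes -0.24, or -0.085 when Ctrl replicate 1 was also left out. At 3 dpi 0 were called either, against 6.98% higher and 1.82% lower among all genes, with 1 higher at an unadjusted p under 0.05, against 22.7%, and 1 by the t-test, against 18.5%.

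The interferon output list moved the most of the 7 lists at 1 dpi. Of its 20 genes 19 were tested (Ifna4 was not well above background on all arrays of any group). In limma 14 were called higher at 1 dpi and 7 at 3 dpi, against 12.3% and 6.98% of all genes. At these times 0 were called lower, against 2.87% and 1.82%. At an unadjusted p under 0.05, 1 was lower at each time, against 22.8% and 18.9%. The methods' t-test also gave 1 lower at each, against 22.1% and 17.2%. Between 3 and 1 dpi 9 genes of the list were called lower, against 4.82%. Its median was 1.48 at 1 dpi, or 1.23 relative to all genes, and 0.68 at 3 dpi, or 0.66 with Ifnb1 at its bound, while the median of the 10 sensor genes was 0.44 at 1 dpi, or 0.19 relative to all genes and 0.32 when Ctrl replicate 1 was also left out. Ifnb1, which encodes interferon beta, was well above background on 0 of 3 arrays in Ctrl and on 3 of 3 at 1 and 3 dpi. It was at least 6.02-fold higher at 1 dpi (adjusted p = 1.2e-05 from limma) and at least 1.33-fold higher at 3 dpi (adjusted p = 0.012), where the mean log2 level after irradiation was set against a Ctrl mean that takes, per array, the higher of the probe's level and the lowest level well above background. With normexp and quantile normalization its fitted log2 fold change was 0.76 at 1 dpi, under that bound, and 0.085 at 3 dpi (adjusted p = 0.4), and the 3 dpi value did not pass with quantile normalization or the deposited table either (0.41 and adjusted p = 0.18 in each). The largest changes with both groups measured were those of Ifit3, at 3.82 (SE 0.07, adjusted p = 1.1e-07), Cxcl10, at 3.20 (SE 0.06), and Ifit1, at 3.06 (SE 0.08). At 3 dpi the list was led by Ifit3 at 2.18 (SE 0.07, adjusted p = 6.9e-07), Il6 at 1.79 and Mx1 at 1.77.

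**Figure D3:**
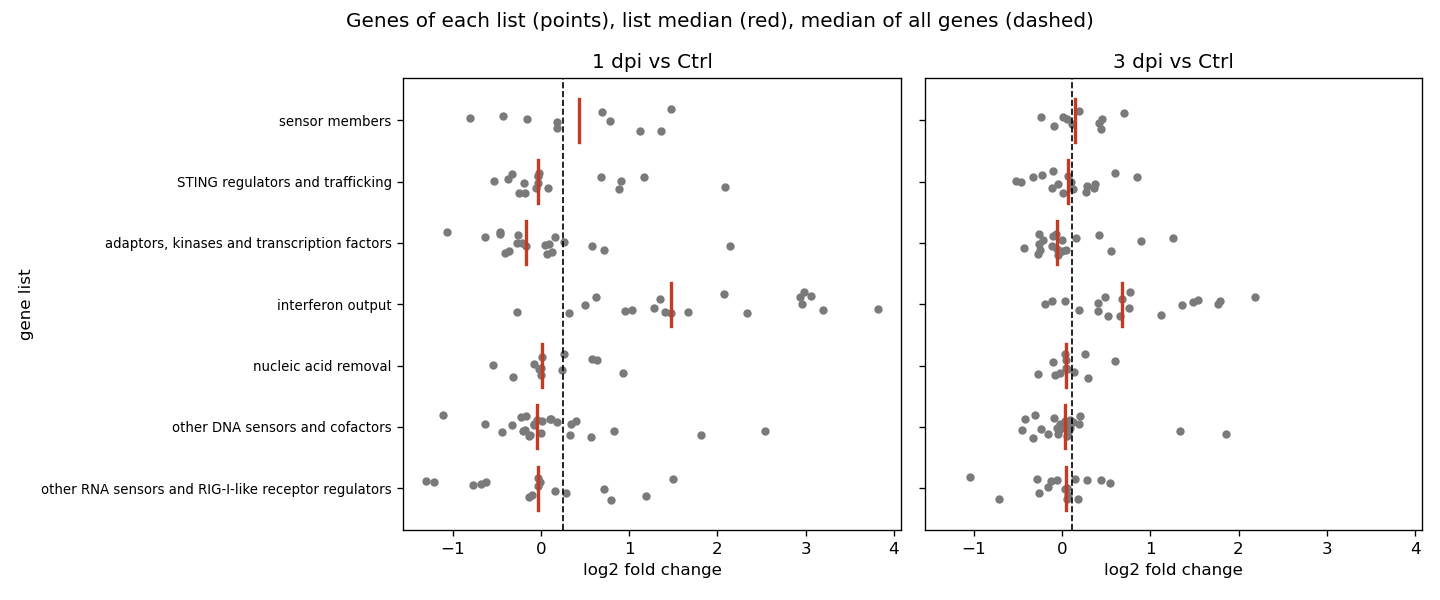
Log2 fold change against Ctrl (horizontal axis) of the tested genes of each list (vertical axis) at 1 dpi and 3 dpi. Points are genes, red bars are list medians and dashed lines are the medians of all genes, at 0.25 and 0.11, and the interferon output list lies furthest to the right, at 1.48 and 0.68.

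The arrays carried signal of other cell types, and in these bulk samples fewer cells of a type and less RNA per cell cannot be told apart. Intensities divided by the 75th percentile of the array were summed over each marker list. All 12 megakaryocyte markers were well above background on all 9 arrays, with Pf4 the brightest, and their sum was 131, 118 and 116 in Ctrl, 130, 119 and 117 at 1 dpi and 138, 136 and 135 at 3 dpi. The markers in this sum moved in both directions at 1 dpi, since Gp1ba (-0.82), Gp5 (-0.54) and Treml1 (-0.33) were lower and Itga2b (0.69) and Gp9 (0.47, or 0.15 with array median scaling) higher by adjusted p, and Pf4 was at 0.09 (adjusted p = 0.24 from limma). At 3 dpi Gp6 (0.95), Gp9 (0.93), Gp1bb (0.79) and Ppbp (0.64) were higher. However, 7 of the 12 megakaryocyte markers lay above 0 at 3 dpi, against 17997 of 29410 genes. The list median was 0.03, or -0.08 relative to all genes. All 10 macrophage markers were detected, led by Csf1r on 8 arrays, and their sum was 43.6, 38.2 and 36.3 in Ctrl, 68.5, 62.8 and 65.9 at 1 dpi and 114.5, 110.2 and 106.7 at 3 dpi. At 1 dpi the sum was higher than in Ctrl, although Cd163 (-2.07) was lower and Adgre1 was at -0.21 (adjusted p = 0.041, with 0.068 without Ctrl replicate 1 and 0.93 with the mean of its probes), and it was highest at 3 dpi. Of the dendritic cell markers 7 of 8 were detected, all but Xcr1, led by Siglech, with a sum of 18.7, 33.4 and 34.1 in Ctrl, 52.0, 48.3 and 46.6 at 1 dpi and 28.7, 25.5 and 24.9 at 3 dpi. Siglech, the brightest, read 3.67, 4.80 and 4.84 in Ctrl and 5.61, 5.50 and 5.44 at 1 dpi. Its log2 fold change of 1.08 (adjusted p = 0.014) was 0.70 without Ctrl replicate 1, short of the 2-fold minimum, and it turned to -0.15 with the mean of its probes and -2.08 in the deposited table. Itgax (0.54, or 0.23 with array median scaling) was higher at 1 dpi, whereas 4 of the 7 were lower, namely Cd209a (-1.97), Ccr7 (-1.96), Flt3 (-1.65) and Clec9a (-0.84), and the list median was -0.84. The sum of the neutrophil markers (9 of 9, led by Mpo) was highest at 1 dpi, at 1817, 1689 and 1663, against 1016, 1085 and 1072 in Ctrl and 1142, 1019 and 1081 at 3 dpi.

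The B cell markers (9 of 9, led by Cd79b) summed to 29.6, 27.9 and 28.7 in Ctrl, 5.90, 5.65 and 5.82 at 1 dpi and 5.74, 5.57 and 5.57 at 3 dpi. At 1 dpi 1 of the 9 was higher than in Ctrl, namely Pax5 (0.56, adjusted p = 0.0083 from limma, or 0.31 relative to all genes). From 1 to 3 dpi 6 of the 9 lay above 0, against 12265 of 29410 genes, with a list median of 0.36. The T and NK cell markers (8 of 8) summed to between 2.19 and 2.87 in Ctrl, 4.33 and 5.07 at 1 dpi and 5.62 and 6.31 at 3 dpi, with Gzma the brightest on 7 arrays and Cd4 on 2. Between 3 and 1 dpi 5 of these 8 markers, against 12265 of 29410 genes, lay above 0. Cd3d (-0.16, adjusted p = 0.043 from limma, or -0.05 relative to all genes), Cd3e (-0.45, 0.085) and Cd4 (-0.40, 0.22) lay below it. The erythroid sum, led by Hba-a1, was 84.2 to 103 in Ctrl, 197 to 245 at 1 dpi and 29.5 to 32.2 at 3 dpi. At 1 dpi Hba-a1 (1.34), Hbb-b1 (1.08) and Alas2 (0.72) were higher, whereas Ahsp (-7.62), Slc4a1 (-3.78) and Klf1 (-2.09) were lower. From 1 to 3 dpi Hba-a1 (-2.82), Hbb-b1 (-2.90) and Alas2 (-2.98) fell with the sum, whereas Ahsp (4.99), Slc4a1 (1.58) and Klf1 (0.40) rose. In that step 5 of the 8 erythroid markers lay above 0, against 12265 of 29410 genes. Their median was 0.86, or 0.20 with markers not well above background at their bounds. The marker Epb42 was well above background on 0 of 3 arrays at 1 dpi, where it was at least 4.06-fold lower than in Ctrl (adjusted p = 3e-05 from limma), and it was not on 1 of the 3 dpi arrays. The stromal sum (8 of 8, led by Cxcl12) was 9.71 to 10.2 in Ctrl, 43.4 to 50.3 at 1 dpi and 81.9 to 90.2 at 3 dpi. The endothelial sum, led by Stab2, was 2.53 to 2.83, 4.07 to 4.43 and 7.28 to 8.75, although Tek was lower at 1 dpi (-0.91, adjusted p = 4e-04 from limma) and Tie1 was at -0.46 at 3 against 1 dpi (adjusted p = 0.033, or 0.27 with array median scaling). Flt4 was not well above background on Ctrl replicate 1 and 1 dpi replicate 1. The part of these cell types in the changes of the sensor genes was not tested.

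**Figure D4:**
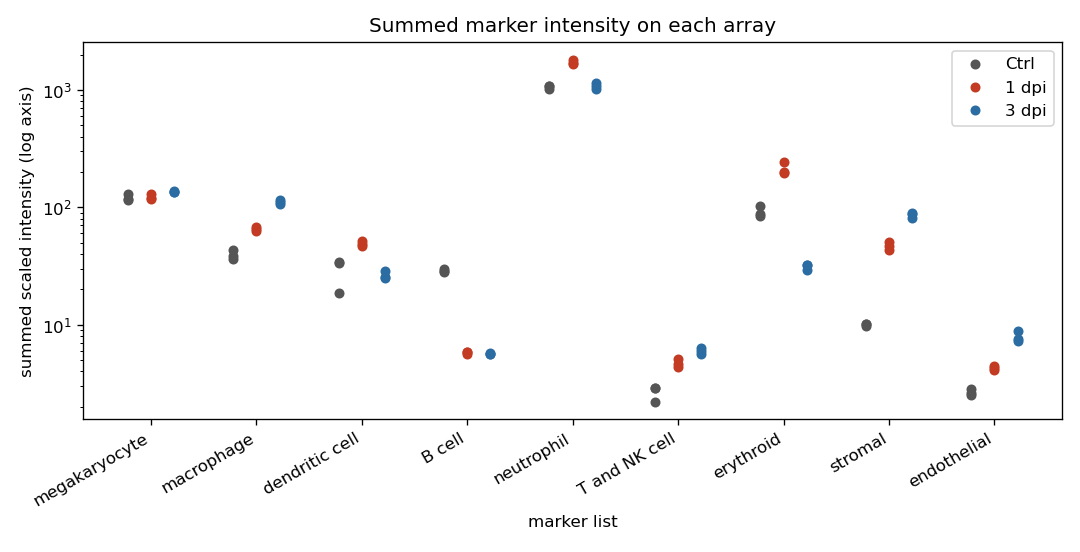
Summed marker intensity, scaled to the 75th percentile of the array (vertical log axis), for 9 marker lists (horizontal axis) on each of the 9 arrays. The megakaryocyte sum, in which Pf4 is the brightest, lies between 116 and 138 on all arrays, while the macrophage and stromal sums are highest at 3 dpi and the B cell sum is highest in Ctrl.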

How the data were processed

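RNA of mMKs was measured on 9 Agilent 1-colour arrays of 3 groups. The authors deposited spot intensity values from Agilent Feature Extraction 10.7.1.1, background-subtracted and not scaled between arrays, whereas the methods describe a chip of another maker. The authors also deposited a log2 table of unstated making, whose column medians over the 21671 genes used were 6.97, 6.96 and 6.97 in Ctrl, 6.95, 6.95 and 6.97 at 1 dpi and 7.02, 7.03 and 7.04 at 3 dpi. How it was scaled between arrays stays unknown, and it served as an alternative.

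Control and outlier-flagged spots were dropped and spots of a probe averaged. The log2 intensity minus the 75th percentile over all non-control spots of the array was used. The percentile was first taken over averaged probes, and the change was made after the intensities were read but before any test, to follow an earlier description of these data. The version over probes was added back as an alternative after results were seen. Of 56605 probes, 44300 were kept because every array of some group had them well above background, and 32994 probes were named by RefSeq accession (GRCm38.p6), the others by the array files, whose coordinates are on mm9.

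Groups were fitted with limma 3.58.1 in R 4.3.3, with Benjamini-Hochberg adjustment over 29410 genes or, for single probes, over 44300 probes, and the fit was tested on simulated data. Figures were drawn with matplotlib 3.10.9. The members and lists were chosen with earlier results of these data known. Named genes are the 10 members, up to 3 called genes per pathway list with the largest change at 1 and at 3 dpi, if each array of both groups had the gene well above background, Ifnb1 and Irf3, the brightest and undetected markers of each cell type, and the 3 genes most correlated with each called member. The other B cell, dendritic cell, endothelial, erythroid, macrophage, megakaryocyte and T and NK cell markers given were chosen after their values were seen. The values of 1 marker gene are not reported here.

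Alternatives were other normalizations, background correction, filters and probe rules, no minimum fold, the methods' t-test, blocks for replicate number and slide, and leaving out each array. Calls relative to the median of all genes, with and without Ctrl replicate 1, were also chosen after seeing the data.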

Additional observations from a re-analysis of the deposited data

Results flagged for a closer look

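The change after irradiation differed between 3 and 1 dpi, by the direct limma test between these time points at an adjusted p under 0.05, for 7 of the 10 sensor genes, against 44.6% of all genes. The log2 difference was -0.90 for Dhx58, -0.78 for Trex1, -0.68 for Ikbke, -0.67 for Ddx58 and -0.27 for Ifih1, all lower at 3 dpi, and 0.81 for Tbk1 and 0.33 for Mavs, both higher. With array median scaling Ikbke, Ddx58 and Ifih1 did not pass (adjusted p = 0.054, 0.057 and 0.66), nor did Ikbke with the mean of probes (0.065) or Ifih1 relative to the median of all genes (0.055, or 0.031 when Ctrl replicate 1 was also left out). Among other pathway genes it was -1.21 for Zbp1, -1.31 for Trim25, -1.49 for Usp18, -1.15 for Nlrc5 and -0.89 for Irf7, against 0.78 for Polr3g, 1.04 for Mex3c and 0.85 for Tank. With the mean of probes it was -0.64 for Trim25, 0.20 for Tank and 0.27 for Polr3g, which then did not pass (adjusted p = 0.053). In the interferon output list it was -1.66 for Cxcl10, -1.64 for Ifit3, -1.58 for Ifit1, -1.20 for Mx1 and -0.28 for Il6. The value of Il6 did not pass in 9 of 25 alternatives, with -0.09 (adjusted p = 0.64) at the least, after array median scaling, and -0.26 without 1 dpi replicate 2 or 3 (adjusted p = 0.059 and 0.054). Ifnb1 was at -2.18, with all arrays of both time points well above background, and at -0.68 with normexp and quantile normalization.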

How the results depend on the processing

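Signal over background limited which probes could be compared, with 69.1% to 81.8% of spots well above background. All 21 probes of the sensor genes were well above background on every array. The fold changes of the sensor genes under the alternatives kept direction and side of the threshold in 646 cases, while 45 no longer passed adjusted p, 30 newly passed and 29 turned sign. Several settings leave the fold change as it was, so that its direction could not turn. These are the t-tests, the replicate block, the fit of only the groups compared and leaving out an array outside those groups. The count of kept cases is therefore no measure of how stable the direction is. Dhx58 and Trex1 were called at 1 dpi under every alternative run, Ikbke not with array median scaling, normexp and quantile normalization, the mean of probes or relative to the median of all genes over all arrays.

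Without a minimum fold, 16443, 9416 and 13125 genes passed for 1 dpi, 3 dpi and 3 against 1 dpi, with 8, 5 and 7 sensor genes. The methods' t-test gave 15674, 10523 and 16909 genes with 10, 6 and 8 sensor genes, and after Benjamini-Hochberg 12626, 7119 and 14319 with 8, 3 and 7. Normexp and quantile normalization together gave 1674, 1157 and 1089 genes. Without the filter on dim probes, 4489 genes were called between 3 and 1 dpi. The deposited table called 6 sensor genes at 1 dpi, adding Ddx58 (1.51), Ifih1 (1.21) and Samhd1 (1.03), and 2 between 3 and 1 dpi (Ddx58 and Ifih1, lower), where its calls over all 21671 genes were 1812 upward and 1823 downward for 1 dpi, and 1684 upward and 1004 downward between 3 and 1 dpi. The mean of probes added Ddx58 (1.28) and Ifih1 (1.01) at 1 dpi. Array median scaling called 1 sensor gene between 3 and 1 dpi, Tbk1 at 1.00, with 1743 of 29410 genes called higher and 851 lower. Leaving out each array in turn gave 3561 to 5367, 2347 to 2768 and 2264 to 2812 genes, with 3, 0 and 0 sensor genes. The slide as a fixed term equals leaving out Ctrl replicate 1.

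Direction changed as follows, and the cause was not tested. With the deposited table, Cgas (Mb21d1) was at 0.59 at 1 dpi and 0.065 at 3 dpi, Ifih1 at -0.0050 at 3 dpi, and Sting1 (Tmem173) at -0.026, Ifi204 at -0.063 and Rnf122 at -0.26 at 3 against 1 dpi. With the mean of probes, Cgas was at 0.25 at 1 dpi and Rnf122 at -0.13 at 3 against 1 dpi. With array median scaling, Samhd1 and Sting1 were at -0.13 each at 1 dpi, Ddx58 at -0.014, Nlrc5 at -0.11, Samhd1 at -0.072 and Tbk1 at -0.12 at 3 dpi, and Cgas at 0.11, Irf3 at 0.086 and Samhd1 at 0.057 at 3 against 1 dpi. Relative to the median of all genes, a setting chosen after seeing the data, Samhd1 and Sting1 were at -0.062 each at 1 dpi, Ddx58 at -0.0031, Nlrc5 at -0.097, Samhd1 at -0.061 and Tbk1 at -0.11 at 3 dpi, and Cgas at 0.025 and Irf3 at 0.0058 at 3 against 1 dpi. When Ctrl replicate 1 was also left out, a setting chosen after seeing the data too, these last values of Cgas and Irf3 were the same and Nlrc5 was at -0.030 at 3 dpi. With normexp and quantile normalization, Samhd1 was at -0.011 at 1 dpi and -0.064 at 3 dpi and Sting1 at -0.028 at 3 against 1 dpi, and with quantile normalization alone Samhd1 was at -0.049 at 3 dpi and Sting1 at -0.028 at 3 against 1 dpi. Nlrc5 at 3 dpi was at -0.021 with the slide as a fixed term and -0.010 as a random block. Leaving out each array gave ranges across 0 for Nlrc5 at 3 dpi (-0.021, without Ctrl replicate 1, to 0.043), Rnf122 at 3 against 1 dpi (-0.0075, without 1 dpi replicate 3, to 0.29), Sting1 at 3 against 1 dpi (-0.039, below 0 without 3 dpi replicate 1 or 1 dpi replicate 3, to 0.046) and Tbk1 at 3 dpi (-0.077, below 0 without 3 dpi replicate 2 or 3 or Ctrl replicate 2, to 0.13).

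The 75th percentile over probes, which was added as an alternative after seeing the data, gave 4361, 2596 and 2542 genes and called Dhx58, Ikbke and Trex1 at 1 dpi. Relative to the median of all genes without Ctrl replicate 1, 3361, 2363 and 2681 genes and the same 3 sensor genes at 1 dpi were called.

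With the replicate number as a block, 4273, 2498 and 2494 genes and 3, 0 and 0 sensor genes were called. Deviations of arrays with the same number correlated between -0.11 and 0.13, against -0.15 to 0.10 for different numbers. Not every array correlated best with its own number. With 3 arrays a group these values cannot settle whether the numbers pair the arrays, which the labels do not state.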
